A study of Mus musculus with 8 samples.

Results

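Solute carriers are the membrane proteins that move nutrients, ions, metabolites and drugs across the cell surface and organelle membranes. The 203 members described here were the protein-coding genes named Slc, or Slco, in a mouse count table of 22691 genes that averaged 1 CPM (counts-per-million of a library's total) or more over 8 libraries. Of 353 protein-coding genes with such a name, 215 reached that level. The Slc1a and Slc18 families and Slc16a1, Slc16a3, Slc2a1, Slc2a3, Slc7a11 and Slc3a2 were left out of the 203. Members were placed in substrate classes by family, and 4 genes (Slc9a3r1, Slc9a3r2, Slc4a1ap and Slc7a6os) carry the name without being carriers. The rule used the average level over both arms and all cultures. A gene high in 1 arm or culture can therefore be a member through it: Slc9a2, Slc38a3 and Slc10a4 averaged under 1 CPM in empty vector libraries, and Slc2a5 in Nfib libraries. The members just inside the level were Slc10a4 at 1.14, Slc38a3 at 1.17 and Slc2a5 at 1.26 CPM. Just outside it were Slc26a9 at 0.875, Slco4c1 at 0.830 and Slc26a11 at 0.816 CPM.

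The libraries came from cell lines grown out of primary lung tumors of mice with small cell lung cancer (SCLC), a neuroendocrine carcinoma. RNA was sequenced from 4 cultures with forced expression of Nfib, which encodes one of the nuclear factor I transcription factors, and from the same 4 cultures carrying an empty vector. All 8 libraries share the invCAG-Mycl-Luc transgene and the loss of Rb1, on a background of FVB/n and 129/Ola, so neither group has an intact Rb1. Pair 1 is the line Lmyc1 and is called old, pair 2 is Lmyc3 old, pair 3 is Lmyc3 new and pair 4 is Lmyc5 new. The words old and new are not explained in the sources used here, nor is it said whether an arm was grown more than once. The p-values therefore measure the spread between these samples.

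Carriers that work by exchange or symport draw on gradients of sodium, protons or chloride, which pumps such as the Na/K-ATPase and the vacuolar proton pump set up. Amino acid carriers feed protein synthesis and nutrient sensing, the Slc25 family serves the inner mitochondrial membrane, and the Slc35 family brings nucleotide sugars into the Golgi for glycosylation. Neuroendocrine cells use further carriers to load granules and to keep their pH and chloride. Several carriers need a partner chain such as basigin or embigin to reach the surface.

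Nfib itself stood at 1284, 4617, 2936 and 3609 CPM in the Nfib libraries of pairs 1 to 4, against 72.4, 398, 163 and 483 CPM in the empty vector libraries, where CPM from here on uses library sizes scaled by TMM. The groups did not overlap, and the difference was 3.68 ± 0.21 on the log2 scale (DESeq2 with the pair as a block, SE, adjusted p = 1.76e-64). Library totals ranged from 21815264 to 29934021 counts, and the members took 1.13% to 1.29% of them. Mitochondrially encoded genes took 3.46%, 3.48%, 3.63% and 2.2% of counts in the Nfib libraries of pairs 1 to 4, against 3.86%, 4.81%, 3.84% and 2.55% in empty vector libraries, a lower share with Nfib in each pair. A gene with no count could stand at up to 0.1 to 0.138 CPM, a limit of 3 counts that covers counting error only. All 10 neuroendocrine markers were detected and tested, with summed levels of 2140 to 4600 CPM in Nfib and 3080 to 4960 CPM in empty vector libraries. One of them, Nkx2-1, was lower with Nfib (141.8 ± 27.8 against 182.6 ± 24.5 CPM, SD, n = 4 each, DESeq2 adjusted p = 0.0122, and 0.192 and 0.139 without pairs 3 and 4). Leukocyte markers summed to 1.82 to 2.51 CPM in Nfib and 1.57 to 2.51 CPM in empty vector libraries, mostly Cd68 (mean of 1.84 and 1.65 CPM) with some Lyz2 (0.168 and 0.329 CPM), while Ptprc averaged 0.0109 and 0 CPM. Fibroblast and endothelial markers summed to 1.48 to 13.1 CPM in Nfib and 1.64 to 10.9 CPM in empty vector libraries. Pdgfra, the 1 gene of this list that was tested, averaged 3.95 and 4.42 CPM (DESeq2 adjusted p = 0.982). It reached 12.2 CPM in the Nfib library of pair 4 and 10.3 CPM in the empty vector library of pair 2. Col1a1 averaged 0.106 and 0.0364 CPM. The endothelial marker Kdr, not tested for low counts, stood at 0, 5.67, 6.48 and 0.157 CPM in Nfib libraries, against 0, 0.0941, 0.0372 and 0 CPM in empty vector libraries, and was higher with Nfib in both Lmyc3 pairs. Alveolar and airway markers summed to 7.64 to 20 CPM in Nfib and 3.89 to 15.8 CPM in empty vector libraries, and 1 of the 5 tested, Aqp5, was higher with Nfib (5.12 ± 5.42 against 0.983 ± 1.60 CPM, adjusted p = 0.00119, and 0.0523 without pair 2). The part of these markers and of the mitochondrial share in the results below was not tested.

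The first comparison asked which solute carriers changed with Nfib within a pair. Slc9a2, Slc38a3, Slc16a10 and Slc29a1 rose and Slc16a12 and Slc35g2 fell, in all 4 pairs each, among 202 members tested by DESeq2 with the pair as a block (adjusted p under 0.05 over 13380 genes). With the line as the block, the 2 Lmyc3 pairs shared a block, so the difference between Lmyc3 old and Lmyc3 new stayed in the spread. Slc29a1 alone of the 6 then kept its call (adjusted p = 0.0194). With the counts of the Lmyc3 pairs summed in each arm, Slc38a3 and Slc35g2 lost their calls. Slc9a2, Slc16a10, Slc16a12 and Slc29a1 kept theirs in that fit (adjusted p = 0.000708, 0.00285, 0.000289 and 0.000269). The 4 that rose were 1.98% of the members, against 1.86% of all genes tested, and the 2 that fell were 0.990%, against 2.20% of all genes. Slc9a2 and Slc38a3, 2 of the 4, were members only through their Nfib libraries, so the share that rose is given as a description only. These shares of solute carriers lie near the background or below it. In such bulk libraries, fewer cells with a transcript and less of it per cell cannot be told apart. The single member not tested was Slc22a29, at 1.45 CPM on average, which did not pass edgeR's filter on low counts. The median member moved by 0.006 on the log2 scale, and the median gene by 0.00323. In 55 members (27.2%) all 4 pairs had the same sign, as in 25.7% of all genes. For 135 members the 95% interval of the change lay within 1.5-fold either way, and for 176 it lay within 2-fold, at a median SE of 0.141 on the log2 scale.

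The call depends on the test. edgeR's quasi-likelihood test without the pairing called 0 of the 202 members and 0% of all genes, with 2 members and 83 genes at an unadjusted p under 0.05. With the pair as a block it again called 0 members and 0% of all genes, with 37 members and 2012 genes at an unadjusted p under 0.05. Its bias-adjusted form with the block called 1 member, Slc9a2 (adjusted p = 0.0320), against 0.329% of all genes. In the text below, rose and fell refer to the paired DESeq2 test.

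**Figure D1:**
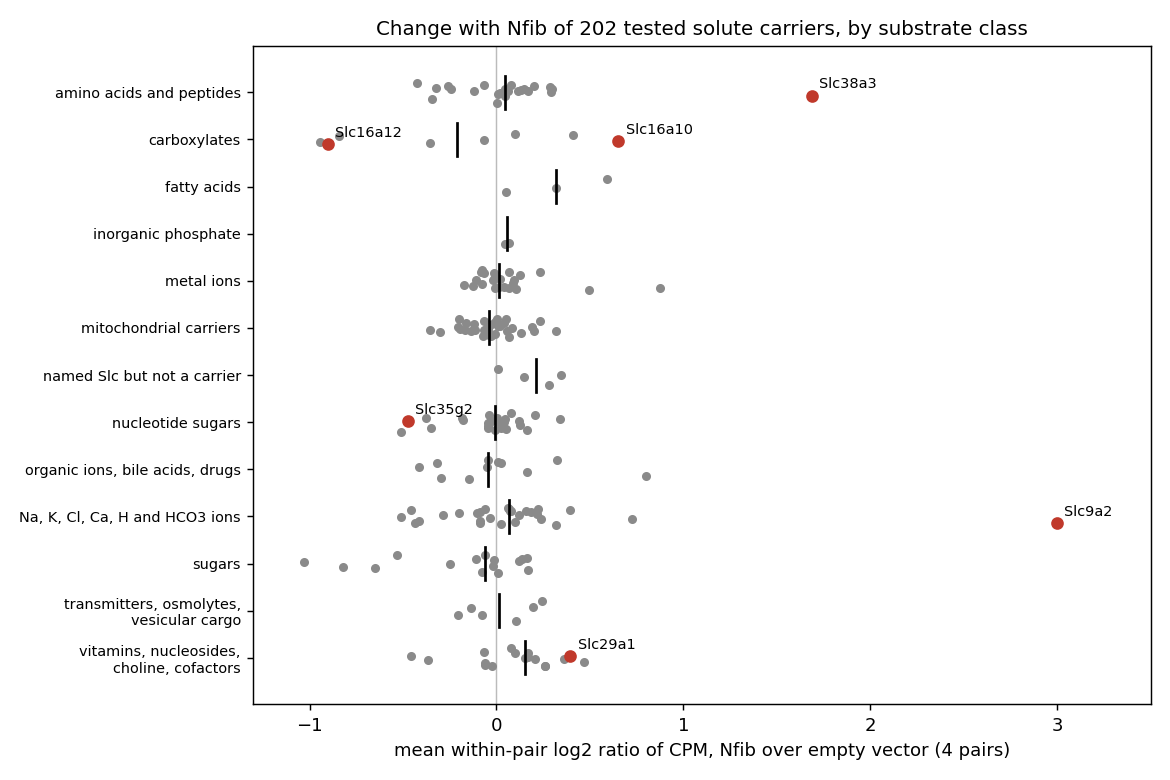
Mean within-pair log2 ratio of CPM, Nfib over empty vector (4 pairs, prior count of 2), for the 202 tested members, a point each, by substrate class. Red points passed the paired DESeq2 test and black bars are class medians; most points lie close to 0, and Slc9a2 stands furthest out at 3.0.

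Nuclear factor I proteins bind DNA as dimers at the palindrome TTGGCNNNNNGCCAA, and more weakly at a monomer site, which reads TTGGC or, on the other strand, GCCAA. Of 32851 promoter windows in RefSeq (GRCm38.p6, 250 bases before to 50 bases after a gene start), 12 (0.0365%) hold the palindrome and 15344 (46.7%) hold a monomer site, palindromes included. RefSeq windows were found for 155 of the 203 members and for 4 of the 6 that passed. None of the windows of those 4 holds the palindrome. The 250 bases before the start are printed for the 3 of them with a single window, 1 gene that rose and 2 that fell, since they show what a promoter with and without a monomer site looks like. Each runs 5′ to 3′ on the minus strand with monomer sites in capitals: chr10:40142255-40142504 for Slc16a10, chr9:100571086-100571335 for Slc35g2 and chr19:34747329-34747578 for Slc16a12.
Slc16a10: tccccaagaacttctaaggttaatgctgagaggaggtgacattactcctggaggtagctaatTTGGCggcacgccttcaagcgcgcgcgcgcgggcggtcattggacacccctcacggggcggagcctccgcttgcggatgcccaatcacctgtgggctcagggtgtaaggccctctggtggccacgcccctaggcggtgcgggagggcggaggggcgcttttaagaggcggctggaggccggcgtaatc
Slc35g2: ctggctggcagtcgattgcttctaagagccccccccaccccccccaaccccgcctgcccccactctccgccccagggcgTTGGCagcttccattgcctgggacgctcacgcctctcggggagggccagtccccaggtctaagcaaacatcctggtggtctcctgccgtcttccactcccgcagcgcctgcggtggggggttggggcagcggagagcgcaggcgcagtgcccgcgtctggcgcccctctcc
Slc16a12: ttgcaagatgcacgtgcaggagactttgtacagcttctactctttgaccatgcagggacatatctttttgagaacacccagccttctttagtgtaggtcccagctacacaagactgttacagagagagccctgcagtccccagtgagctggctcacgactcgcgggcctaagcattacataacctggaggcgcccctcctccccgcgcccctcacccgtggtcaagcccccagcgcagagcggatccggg
The monomer site begins 188 bases before the start in Slc16a10, which rose, and 171 bases before it in Slc35g2, which fell. The Slc16a12 window holds none. With such a site in 46.7% of all windows, these matches are a description of the letters and not a site of binding.

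Carriers of sodium, potassium, chloride, calcium, protons and bicarbonate (28 members) held the largest within-pair change. Slc9a2 (ENSMUSG00000026062, GRCm38 chromosome 1, 40681712 to 40768885), a plasma membrane sodium/proton exchanger, stood at 0.698, 12.8, 1.17 and 2.28 CPM in the Nfib libraries of pairs 1 to 4, against 0, 1.51, 0.0744 and 0.269 CPM in empty vector libraries. Each Nfib library was above its own partner, although the groups overlap because Lmyc3 old was high in both arms. The counts behind these values were 16, 283, 27 and 58 with Nfib, against 0, 32, 2 and 6 with empty vector. The change was 3.63 ± 0.67 on the log2 scale (SE, 95% interval 2.31 to 4.95, adjusted p = 2.05e-05), and it passed without any one of the pairs. With the line as the block the adjusted p was 0.391. The gene averaged 4.24 ± 5.77 CPM with Nfib and 0.462 ± 0.705 CPM with empty vector (SD, n = 4 each), under the member limit of 1 CPM in empty vector libraries.

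The other 27 members of this ion class did not pass. Slc12a5, the potassium/chloride cotransporter KCC2 that lowers chloride in neurons, was lower in each Nfib library (40.0, 9.12, 15.3 and 39.5 CPM, against 44.5, 14.4, 28.1 and 44.2 CPM), with a log2 change of -0.46 ± 0.18 and an adjusted p of 0.132. Slc9a9, an endosomal sodium/proton exchanger, was also lower in each pair, at a mean of 16.2 ± 11.1 CPM with Nfib and 21.3 ± 13.8 CPM with empty vector (adjusted p = 0.0737).

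Of the 23 carriers of amino acids and peptides, 1 rose and 0 fell. Slc38a3 (ENSMUSG00000010064, chromosome 9, 107650639 to 107668968), a system N carrier that moves glutamine and histidine, stood at 0.960, 0.635, 4.93 and 1.10 CPM in Nfib libraries, against 0.205, 0.235, 0.595 and 0.582 CPM in empty vector libraries. The groups do not overlap, and Lmyc3 new with Nfib was the highest library. The counts were 22, 14, 114 and 28 with Nfib, against 6, 5, 16 and 13. The change was 1.93 ± 0.62 on the log2 scale with an adjusted p of 0.0470, and it lost the call without any one pair (adjusted p = 0.305, 0.113, 0.799 and 0.0970 without pairs 1 to 4). It was also lost with the Lmyc3 pairs summed (adjusted p = 0.158) and with the line as the block (0.790). Slc38a3 reached the level limit only through its Nfib libraries, and its mean was 1.91 ± 2.02 CPM with Nfib and 0.404 ± 0.213 CPM with empty vector.

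Slc38a2, the system A carrier of small neutral amino acids, was the most abundant of the class at 69.0 CPM per kb. It stood at 602, 664, 538 and 636 CPM in Nfib libraries, against 597, 604, 553 and 684 CPM in empty vector libraries. The change was -0.01 ± 0.07 on the log2 scale, with a 95% interval of -0.15 to 0.13. In 16 of the 23 members (69.6%) the mean within-pair ratio was above 0, against 50.8% of all genes tested, a difference that was not tested. The class median was 0.0475 on the log2 scale.

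The 8 members placed with carboxylates belong to the Slc16 and Slc13 families, and 1 rose and 1 fell. Slc16a10 (ENSMUSG00000019838, chromosome 10, 40033535 to 40142254), which carries aromatic amino acids and not monocarboxylates, stood at 45.8, 39.9, 50.4 and 40.9 CPM with Nfib, against 35.2, 19.9, 36.4 and 24.1 CPM with empty vector. Every Nfib library was above every empty vector library. Its mean was 44.3 ± 4.85 CPM against 28.9 ± 8.18 CPM (SD, n = 4 each), a change of 0.64 ± 0.15 on the log2 scale (adjusted p = 0.00150). Without pair 4 the adjusted p was 0.0703, and with the line as the block it was 0.790.

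Slc16a12 (ENSMUSG00000009378, chromosome 19, 34668403 to 34747289), a carrier of creatine, fell. Its levels were 46.0, 2.54, 32.3 and 4.12 CPM with Nfib, against 75.4, 6.83, 62.1 and 6.09 CPM with empty vector. The cultures differ far more than the arms: Lmyc1 old and Lmyc3 new were high in both arms and Lmyc3 old and Lmyc5 new low, and the groups overlap. The log2 ratios within pairs were -0.71, -1.40, -0.94 and -0.55, and the change was -0.90 ± 0.17 (adjusted p = 3.51e-05), passing without any one pair but not with the line as the block (adjusted p = 1).

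Among the members of the same class that did not pass, Slc16a13, a proton-coupled monocarboxylate carrier, was higher in each pair (15.4 ± 4.99 CPM with Nfib, 11.6 ± 3.55 CPM with empty vector, adjusted p = 0.199). Slc13a3, a sodium-dependent dicarboxylate carrier, was lower in each pair (3.60 ± 6.43 and 5.39 ± 9.27 CPM, DESeq2 adjusted p = 0.372), and Lmyc1 old held most of its counts. In pair 2 it had 0 counts with Nfib and 1 with empty vector, so its direction there is not resolved.

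Among 17 carriers of vitamins, nucleosides, choline and cofactors, 1 rose and 0 fell. Slc29a1 (ENSMUSG00000023942, chromosome 17, 45585200 to 45599606), the equilibrative nucleoside transporter ENT1 that also takes up nucleoside drugs, stood at 97.4, 112.5, 97.4 and 255 CPM with Nfib, against 78.2, 79.2, 76.9 and 190.4 CPM with empty vector. Lmyc5 new was high in both arms, and the other 3 Nfib libraries were above the other 3 empty vector libraries. The within-pair log2 ratios were close to each other, at 0.32, 0.51, 0.34 and 0.42. The change was 0.39 ± 0.07 (adjusted p = 2.37e-05), the most precise of the 6, and it passed without any one pair. Slc29a1 was also the most abundant of its class, at 30.8 CPM per kb. Slc52a3, a riboflavin carrier, was higher in each pair without passing (2.13 ± 3.34 and 1.67 ± 2.74 CPM, adjusted p = 0.734). Slc46a3, a lysosomal carrier, was lower in each pair without passing (4.80 ± 0.916 and 6.98 ± 2.84 CPM, adjusted p = 0.472).

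The Slc35 family, placed with the nucleotide sugar carriers of the Golgi and endoplasmic reticulum (25 members), had 1 member that fell and 0 that rose. Slc35g2 (ENSMUSG00000070287, chromosome 9, 100552188 to 100571090), a member of the family with no well established substrate, stood at 34.3, 19.1, 30.7 and 19.9 CPM with Nfib, against 40.8, 30.1, 45.6 and 26.7 CPM with empty vector. The groups overlap, since Lmyc1 old and Lmyc3 new were higher in both arms. The change was -0.48 ± 0.12 on the log2 scale (adjusted p = 0.00520). It held without pair 1 and was lost without pair 2, 3 or 4 (adjusted p = 0.106, 0.308 and 0.136). It was also lost with the Lmyc3 pairs summed (0.0829) and with the line as the block (1). Slc35e1 was the most abundant of the family at 38.5 CPM per kb, with 179 ± 76.9 CPM in Nfib and 164 ± 70.6 CPM in empty vector libraries (adjusted p = 0.268).

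**Figure D2:**
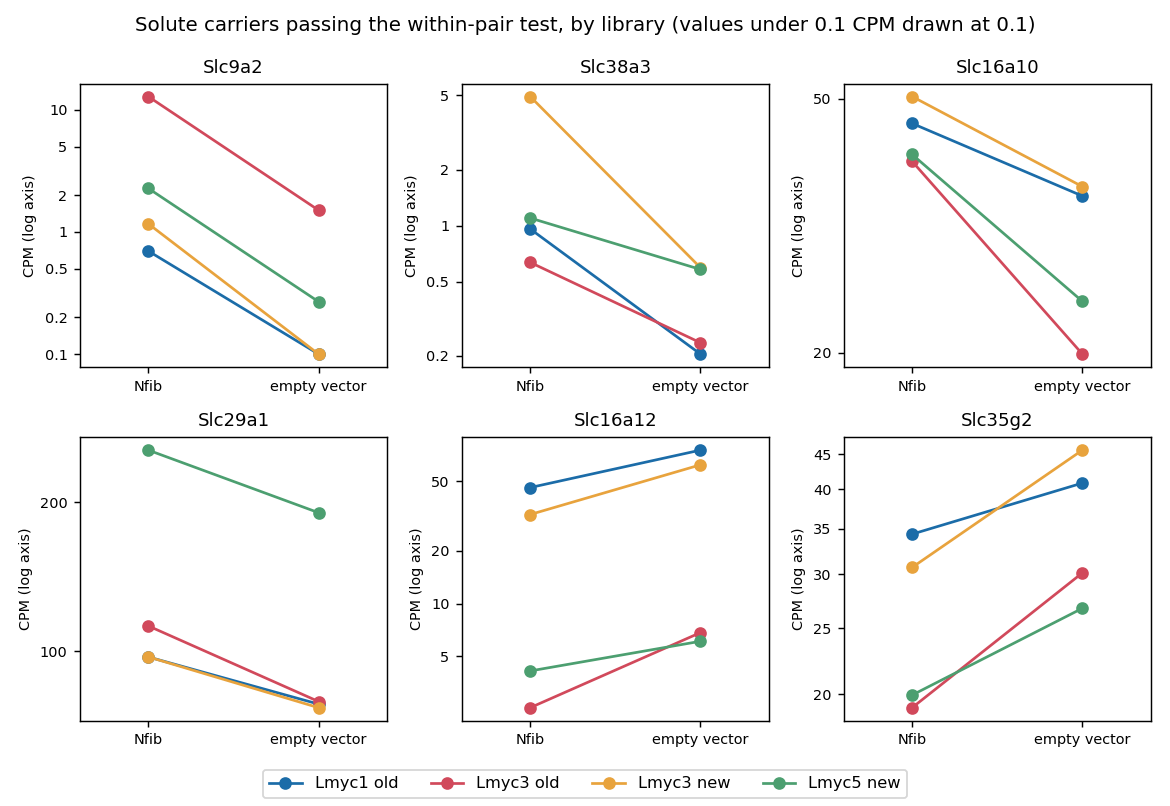
CPM (log axis) of the 6 members that passed the paired test, Nfib left and empty vector right, with a line for each culture. Lines of a panel run the same way in all 4 cultures, while the cultures themselves lie far apart for Slc9a2, Slc29a1 and Slc16a12.

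In the remaining classes no member passed in either direction. The 37 mitochondrial carriers of the Slc25 family lay between -0.35 and 0.32 on the log2 scale (mean within-pair ratio, class median -0.0386). Of the 37, 13 (35.1%) were above 0, against 50.8% of all genes tested, a difference that was not tested. Slc25a5, an ADP/ATP exchanger, was the most abundant member at 330 CPM per kb, at 526 ± 143 CPM with Nfib and 559 ± 176 CPM with empty vector (adjusted p = 0.686). It has processed pseudogenes, so its reads may be shared and its level is uncertain.

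The 23 metal carriers had a median ratio of 0.0142. Slc39a6, a zinc importer, was the most abundant at 28.9 CPM per kb (121 ± 48.6 and 115 ± 51.0 CPM, adjusted p = 0.760). Slc40a1, the iron exporter ferroportin, was higher in each pair without passing (DESeq2 adjusted p = 0.498). It stood at 0.480, 1.95, 10.5 and 0.0783 CPM with Nfib, against 0.0341, 1.22, 8.70 and 0.0448 CPM with empty vector. Lmyc3 new carried most of its counts. In pair 4 it had 2 counts with Nfib and 1 with empty vector, so its direction there is not resolved.

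Of 15 members in the sugar families, 5 (33.3%) had a mean ratio above 0, against 50.8% of all genes tested, a difference that was not tested. The class median was -0.0603. Slc2a5, the fructose carrier GLUT5, was lower in each Nfib library (1.22, 0.998, 0.130 and 0.824 CPM, against 3.99, 1.41, 0.669 and 0.940 CPM), with a log2 change of -1.12 ± 0.58 and an adjusted p of 0.363. Slc5a5, the iodide symporter of the sodium/glucose family, was likewise lower in each pair (2.18 ± 1.69 and 3.45 ± 2.95 CPM, adjusted p = 0.349). Slc50a1, a sugar carrier of the SWEET family, was the most abundant at 20.8 CPM per kb (32.2 ± 6.78 and 28.8 ± 6.95 CPM, adjusted p = 0.579).

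Of the 11 tested carriers of organic ions, bile acids and drugs, Slc10a4, a vesicular member of the bile acid family found in neurons, was higher in each pair (0.742, 4.58, 0.303 and 0.785 CPM, against 0.682, 1.55, 0.149 and 0.403 CPM, adjusted p = 0.479). Slc22a17, a receptor for lipocalin 2, had the highest level of that class at 8.02 CPM per kb (35.3 ± 25.7 and 37.2 ± 30.5 CPM, adjusted p = 0.967). Among 6 carriers of transmitters and osmolytes, Slc6a6, the taurine transporter, was most abundant at 26.2 CPM per kb (229.9 ± 48.8 and 213 ± 43.4 CPM, adjusted p = 0.716). Slc27a4, a fatty acid transport protein, stood at 13.3 CPM per kb (59.7 ± 4.95 and 57.8 ± 5.55 CPM, adjusted p = 0.920), and Slc20a1, a phosphate carrier, at 30.0 CPM per kb (169 ± 34.1 and 166 ± 43.8 CPM, adjusted p = 0.930). Slc4a1ap, one of the 4 genes that are not carriers, stood at 34.6 ± 0.575 CPM with Nfib and 34.3 ± 0.602 CPM with empty vector. Its span overlaps that of Supt7l, so some of its reads may belong to that gene.

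The second comparison asked how far solute carriers differed between the 4 cultures, taking both libraries of a culture together. Of 202 members, 170 (84.2%) differed between cultures by edgeR's quasi-likelihood test, against 76.7% of all genes tested. The spread in this test is that between the 2 libraries of a culture, with 1 culture per number, so it holds for these cultures only. The culture means of 51 of the 170 (25.2% of the 202) lay over 4-fold apart and those of 23 (11.4%) over 16-fold, against 22.9% and 9.89% of all genes. The median range was 1.05 on the log2 scale for members and 0.927 for all genes. The level limit has a part here: 28 tested members were under 1 CPM in at least 1 culture and were members through the others, and all 28 were called. Of the 174 at 1 CPM or more in every culture, 142 were called, and 24 of these lay over 4-fold apart. Among the 170, Lmyc3 old was the lowest culture for 65 and the highest for 34, and Lmyc3 new was the highest for 50 and the lowest for 41. The same counts were not made for all genes, so these describe the members only.

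By class, all 28 ion carriers differed, as did 24 of 25 nucleotide sugar carriers (96.0%), 14 of 15 in the sugar families (93.3%) and 19 of 23 amino acid carriers (82.6%). With 17 of 23 (73.9%), 27 of 37 (73.0%) and 6 of 8 (75.0%), metal, mitochondrial and carboxylate carriers lay near the 76.7% of all genes tested. The median range was widest in the sugar families, 2.53 on the log2 scale, and in the carboxylate class, 2.4, and narrow in metal carriers, 0.72, and mitochondrial carriers, 0.802. Among amino acid carriers 7 of 23 (30.4%) lay over 16-fold apart, and among mitochondrial carriers 0 of 37, against 9.89% of all genes tested. Some of the amino acid carriers, such as Slc38a5, Slc7a2 and Slc15a2, were near 0 in a culture and were members through the others. The level limit therefore has a part in that share. These differences between classes were not tested.

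**Figure D3:**
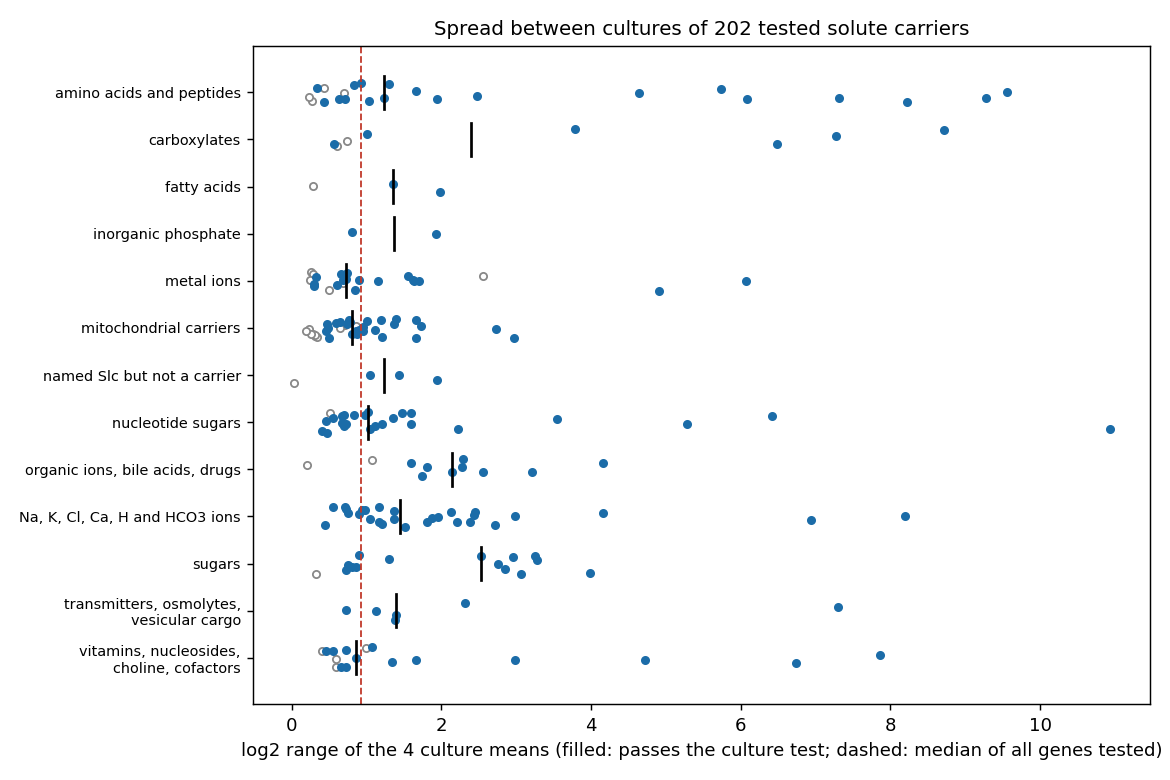
Range of the 4 culture means on the log2 scale for each of 202 tested members, by substrate class. Filled points passed the culture test, black bars are class medians, and the dashed line is the median of all genes tested, 0.927. Amino acid carriers run out to 9.56 while mitochondrial carriers stay under 2.98. The 9.56 is for Slc38a5, which had no count in Lmyc1 old, so it rests on the prior count, and its bound was 8.92. Slc35f1, in the nucleotide sugar class, had a wider range still.

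Called members with the widest range were read library by library, with the Nfib library first and the empty vector library of the same culture after it. Of these, Slc38a11 and Slc7a3 alone averaged 1 CPM or more in every culture. The others reached the level limit through their higher cultures, so that rule has a part in their wide range. Slc35f1, a member of the Slc35 family with no well established substrate, stood at 113 and 353 CPM in Lmyc3 old, at 4.32 and 1.93 CPM in Lmyc5 new, and at 1 count or fewer in each library of Lmyc3 new and Lmyc1 old. It was thus high in a single culture, through which it was a member. Its neighbor in the family, Slc35f2, was highest in Lmyc3 old as well (22.3 and 16.8 CPM) and lowest in Lmyc5 new (0.157 and 0.134 CPM).

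Of the amino acid and peptide carriers, Slc38a5, a system N glutamine carrier, stood at 49.3 and 78.8 CPM in Lmyc5 new, at 0.821 and 0.521 CPM in Lmyc3 new, at 0.363 and 0.941 CPM in Lmyc3 old, and had no count in Lmyc1 old. Against the limit of 3 counts per library, the mean of Lmyc5 new was at least 485-fold higher than Lmyc1 old. Slc38a11, a family member with no well established substrate, was also highest in Lmyc5 new, at 182 and 280.4 CPM, and lowest in Lmyc3 old, at 1.04 and 1.69 CPM.

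The cationic amino acid carriers Slc7a2 and Slc7a3, which bring in arginine and lysine, had different patterns. Slc7a2 stood at 69.7 and 37.99 CPM in Lmyc3 old and at 49.7 and 33.3 CPM in Lmyc5 new, with 0.0432 and 0.223 CPM in Lmyc3 new and no count in Lmyc1 old, at least 408-fold lower than Lmyc3 old. Slc7a3 stood at 237 and 283 CPM in Lmyc3 new, at 135 and 146 CPM in Lmyc1 old, at 97.2 and 65.2 CPM in Lmyc5 new and at 4.26 and 3.25 CPM in Lmyc3 old. Slc7a3 was thus highest in Lmyc3 new, where Slc7a2 was near 0, and lowest in Lmyc3 old, where Slc7a2 was highest. Slc15a2, the proton-coupled peptide transporter PEPT2, was at 26.1 and 34.0 CPM in Lmyc3 new, 12.7 and 23.3 CPM in Lmyc3 old, 8.64 and 10.9 CPM in Lmyc1 old, and at 1 and 0 counts in Lmyc5 new.

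In the carboxylate class, Slc13a3 and Slc16a5 were highest in Lmyc1 old. Slc13a3 stood at 13.2 and 19.3 CPM in Lmyc1 old and under 1.5 CPM in every other library. Slc16a5, whose human counterpart carries drugs such as bumetanide, stood at 18.2 and 16.4 CPM in Lmyc1 old, at 8.21 and 12.4 CPM in Lmyc3 new and under 1 CPM in the other 4 libraries.

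The choline transporter-like genes Slc44a3 and Slc44a5 were again unlike each other. Slc44a3 stood at 15.9 and 23.1 CPM in Lmyc3 new and at 2.62 and 2.90 CPM in Lmyc1 old, with no count in Lmyc5 new. The mean of Lmyc3 new was at least 146-fold higher than Lmyc5 new. Slc44a5 stood at 15.7 and 17.7 CPM in Lmyc3 old, at 7.37 and 6.75 CPM in Lmyc1 old and under 0.5 CPM in the other 4 libraries.

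Slc24a2, Slc12a8 and Slc6a15 complete the members named for their range. Slc24a2, a potassium-dependent sodium/calcium exchanger of photoreceptors and neurons, stood at 37.1 and 22.1 CPM in Lmyc3 old, near 5 CPM in Lmyc3 new (4.84 and 5.06) and at 0 and 1 count in Lmyc1 old. Slc12a8, a divergent member of the cation/chloride cotransporter family, stood at 61.9 and 71.5 CPM in Lmyc3 new, 23.5 and 16.5 CPM in Lmyc1 old, and 1.41 CPM or less in the other 4 libraries. Slc6a15, a carrier of branched-chain amino acids and proline in neurons, stood at 94.8 and 67.3 CPM in Lmyc3 old, 67.5 and 76.0 CPM in Lmyc1 old, 8.44 and 4.34 CPM in Lmyc5 new and 0.346 and 0.521 CPM in Lmyc3 new. The arms of a culture also differed in places, as for Slc35f1 in Lmyc3 old, where the empty vector library was the higher.

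**Figure D4:**
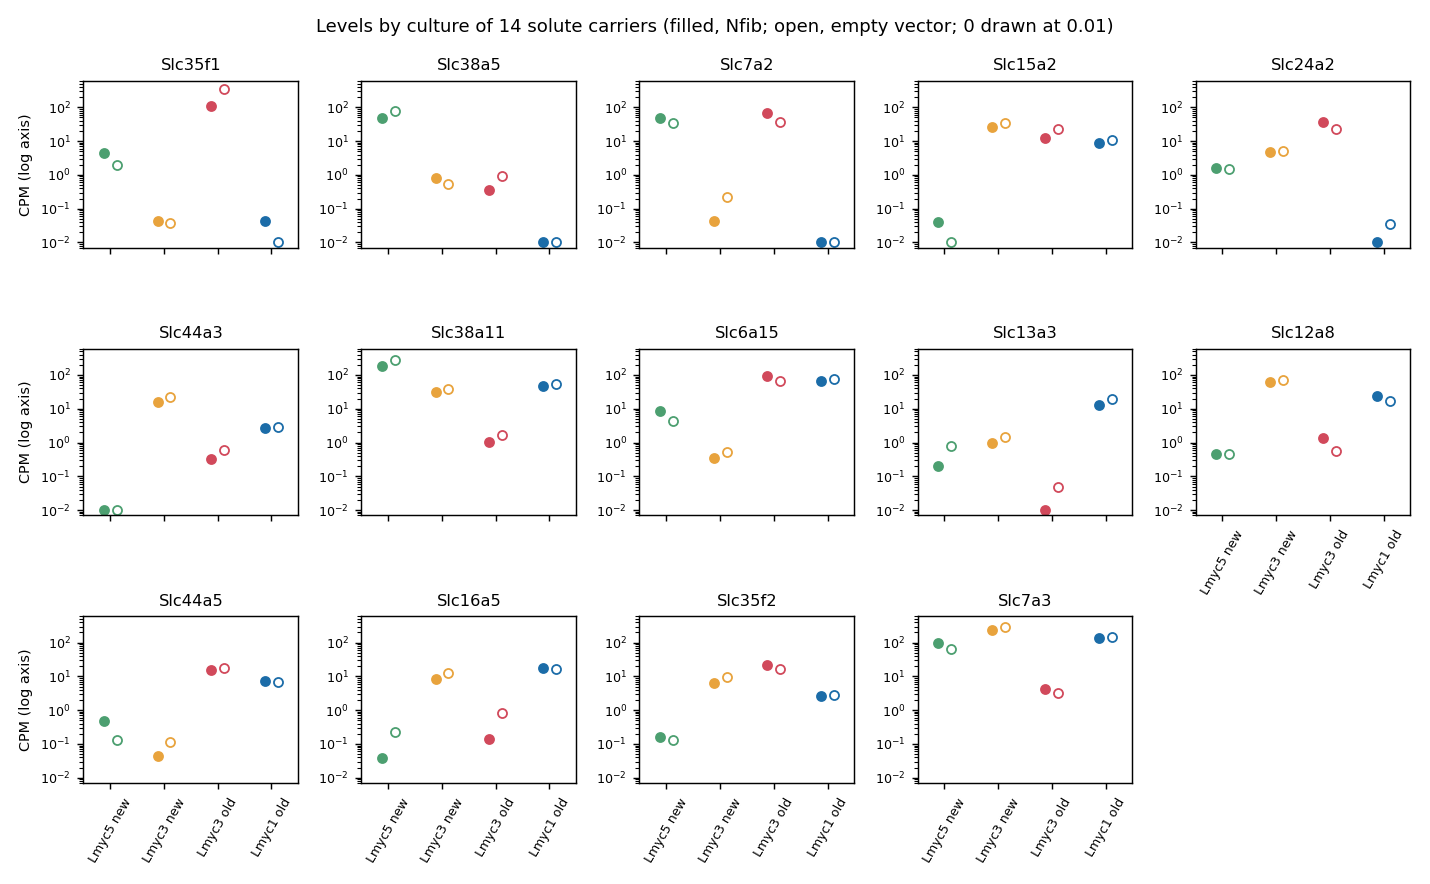
CPM (log axis) of the members named for their wide culture range, by culture, with the Nfib library as a filled and the empty vector library as an open point and values of 0 drawn at 0.01. The 2 points of a culture lie nearer each other than the highest and lowest cultures do, and no single culture is highest or lowest in all panels.

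The third comparison set Lmyc3 new against Lmyc3 old, the only line with more than 1 culture. Of 202 members, 134 (66.3%) differed in edgeR's quasi-likelihood test, against 59.9% of all genes tested. Of these, 86 (42.6%) were higher and 48 (23.8%) lower in Lmyc3 new, whereas all genes were split evenly, at 30.4% higher and 29.5% lower. The excess of higher calls was not tested as such. All 8 members of the carboxylate class differed, 7 of them higher in Lmyc3 new. In the test over all 4 cultures, 6 of these 8 passed (75.0%), against 76.7% of all genes tested. Among amino acid carriers 11 were higher and 4 lower, and among mitochondrial carriers 11 were higher and 11 lower.

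Named members with higher levels in Lmyc3 new were Slc7a3 (mean of 260.3 CPM in Lmyc3 new and 3.76 CPM in Lmyc3 old, log2 difference 6.10 ± 0.27), Slc12a8 (66.7 and 0.986 CPM, 6.09 ± 0.36) and Slc44a3 (19.5 and 0.465 CPM, 5.37 ± 0.30). Slc16a12, which fell with Nfib, was also higher in Lmyc3 new, at 47.2 and 4.68 CPM (3.36 ± 0.21, SE, adjusted p = 0.000187). Lower in Lmyc3 new were Slc7a2 (0.133 and 53.8 CPM) and Slc6a15 (0.433 and 81.0 CPM). Slc9a2, which rose with Nfib, was lower in Lmyc3 new as well, at 0.621 and 7.17 CPM (log2 difference -3.70 ± 0.53, adjusted p = 0.00222).

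By the share of members over 2-fold apart, these cultures of one line differed more than the other combinations of cultures. Between Lmyc3 new and Lmyc3 old, 69 members (34.2%) had means over 2-fold apart, against 21.8% to 31.2% for the other 5 combinations. For all genes the same share was 30.8%, against 20.3% to 25.1%. At 4-fold the order was another, with 30 members (14.9%) between Lmyc3 new and Lmyc3 old and 31 (15.3%) between Lmyc5 new and Lmyc1 old. Across the 202 members the Spearman correlation of culture means was lowest between Lmyc3 new and Lmyc3 old, 0.717, and highest between Lmyc3 new and Lmyc1 old, 0.885. For all genes tested the same combinations were lowest and highest, at 0.866 and 0.928. These correlations are a description over genes that share libraries and depth.

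**Figure D5:**
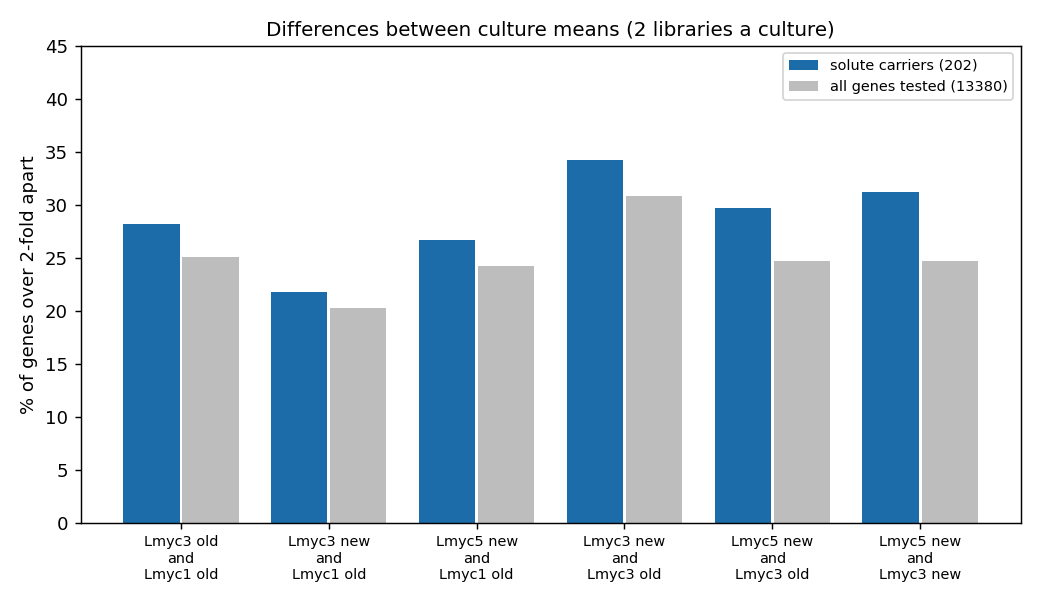
Share of members (blue, 202) and of all genes tested (grey, 13380) whose culture means lay over 2-fold apart, for each combination of 2 cultures, with Lmyc3 new and Lmyc3 old the highest at 34.2% and 30.8%. Bars are counts over genes and have no replicate error.

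Genes that work with solute carriers were read from lists of pumps, partners and carriers of other names. Of all genes tested, 1.86% rose and 2.20% fell, and the counts in these short lists were not tested against those shares. In the vacuolar proton pump, which acidifies granules and lysosomes, 0 of 18 tested genes rose and 2 fell, Atp6v1a (354 ± 64.9 and 401 ± 64.7 CPM, log2 change -0.19 ± 0.06, adjusted p = 0.0397) and Atp6v1g1 (92.5 ± 18.9 and 123 ± 14.8 CPM, -0.44 ± 0.13, adjusted p = 0.0250). With library totals as the scale their adjusted p-values were 0.167 and 0.0583. Atp6v1a was lost without any one pair (0.281 to 0.464), and Atp6v1g1 without pair 2, 3 or 4 (0.109, 0.234 and 0.195). Of 8 tested partner and chaperone genes, 0 rose and 2 fell. These were Emb, or embigin, which escorts Slc16 carriers to the surface (162 ± 20.5 and 197 ± 20.9 CPM, -0.29 ± 0.09, adjusted p = 0.0265), and Nptn, or neuroplastin, a relative of basigin (164 ± 60.9 and 202 ± 87.5 CPM, -0.30 ± 0.09, adjusted p = 0.0242). On library totals these were 0.0746 and 0.0775. Without pair 2, 3 or 4 neither passed (0.196, 0.319 and 0.431 for Emb, 0.173, 0.448 and 0.188 for Nptn). With the Lmyc3 pairs summed, Atp6v1a, Atp6v1g1, Emb and Nptn all lost their calls (adjusted p = 0.141, 0.0723, 0.124 and 0.145). Cp, or ceruloplasmin, the ferroxidase that works with ferroportin, did not pass edgeR's filter and is outside these counts. It was higher in each pair, at 0.436, 1.13, 0.389 and 29.4 CPM with Nfib, against 0, 0.188, 0 and 0.582 CPM with empty vector, mostly in Lmyc5 new.

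Of 28 tested carriers without an Slc name, 0 rose and 2 fell. Ucp2, a mitochondrial uncoupling protein of the Slc25 fold, stood at 1049, 131, 861 and 283 CPM with Nfib, against 1327, 449, 1184 and 483 CPM with empty vector (-0.84 ± 0.22, adjusted p = 0.00775, and 0.549 without pair 4). Mfsd6, of the major facilitator superfamily, averaged 151 ± 46.2 CPM with Nfib and 185 ± 59.4 CPM with empty vector (-0.29 ± 0.07, adjusted p = 0.00398). It passed without pair 2 and not without pair 1, 3 or 4 (0.0948, 0.287 and 0.267). With the Lmyc3 pairs summed, Ucp2 and Mfsd6 kept their calls (adjusted p = 4.74e-06 and 0.00270), and with the line as the block neither passed. In the Na/K-ATPase list 0 of 8 tested genes passed, with a median ratio of -0.36, and among the kinases that regulate chloride cotransport 0 of 9 passed. All genes tested had a median of 0.00323, and 1.86% rose and 2.20% fell.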

How the data were processed

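The deposited table holds whole-number read counts for each Ensembl gene, as the authors made them before any normalization, beside gene symbols, biotypes and positions. The labels' protocols give the Illumina TruSeq RNA kit, and the series design a HiSeq2500. Per the submitters' processing notes, the tools were TopHat2 2.1, Bowtie 1.0.0, SAMtools 0.1.19 and DESeq2, and the build GRCm38 (mm10). The program that counted reads, whether it used strand, and its annotation were not given in the sources used here. The spans of 63 members, introns included and on either strand, overlap another gene of the table. These members may therefore share reads with that gene where it is expressed and exons overlap, which was not examined. Groups follow the source field, because Nfib libraries have Tumor in their titles, and some members that the naming rule takes, with 1 allele of the genotype label, are not reported here, while counts include those members.

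Every fit covered the whole table (edgeR's filter by group, 13380 genes, Benjamini-Hochberg at 0.05), and the members' values were read from it. Tools were R 4.3.3, edgeR 4.0.16, DESeq2 1.42.0 and limma 3.58.1. edgeR's quasi-likelihood test without a block, original form, was the unpaired test. The within-pair test was DESeq2's Wald test with replicate number as a block, chosen knowing that edgeR calls no gene. Libraries of the same number come from the same line, and their deviations from the group mean correlated across genes at r = 0.908, 0.884, 0.935 and 0.929, against at most 0.0644 for other combinations. DESeq2 left 260 adjusted p-values undefined, which were kept so and count as not passing. Cultures were tested by edgeR on the 3 coefficients of replicate number together, with group as a covariate.

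CPM uses TMM-scaled library sizes, except for the member rule and the limit of 3 counts, and log2 ratios use a prior count of 2. The median within-pair ratio of all genes was 0.00323 with TMM and 0.0294 with library totals. Levels per kb use the union of exons in a GENCODE annotation of GRCm38. Named members were those that pass within pairs, topped up to 8 a direction with members of the same sign in all 4 pairs, the 15 called members of widest culture range, the most abundant member of each class, the 3 nearest the level limit on either side, and list genes that pass. The members, lists and tests were chosen with earlier results of these data known. The fits were tested on simulated counts. Alternatives were other tests, scalings, filters, thresholds and blocks, and each pair left out.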

Additional observations from a re-analysis of the deposited data

Results flagged for a closer look

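Of 123 groups of 4 values examined for 41 named members (Nfib libraries, empty vector libraries and within-pair ratios), 4 held a value far from the other 3. Chance flags about 1 in 20 such groups. Slc29a1 was far higher in replicate 4, Lmyc5 new, in both arms, at 7.99 on the log2 CPM scale with Nfib (the other 3 at 6.61 to 6.81) and at 7.57 with empty vector (the other 3 at 6.27 to 6.31). Slc22a17 was far higher in the same culture with empty vector, at 6.38 (the other 3 at 4.40 to 4.56). The within-pair log2 ratio of Slc13a3 was far lower in replicate 4, at -1.67 (the other 3 at -0.65 to -0.51), from 5 counts with Nfib and 18 counts with empty vector.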

How the results depend on the processing

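With the replicate block, the paired DESeq2 test called 4 members higher and 2 lower. edgeR with the replicate block and limma voom with the replicate block called 0 higher and 0 lower, edgeR's bias-adjusted form with the replicate block 1 and 0, DESeq2 with no replicate block 0 and 0, and the line as the block 1 and 0. Members at 5 CPM or more gave 2 higher, and an adjusted p under 0.1 gave 7 lower. Leaving out a pair gave 2 to 3 higher and 1 to 4 lower. The other settings (TMM factors, library totals, no filter, at least 10 counts in 4 libraries, Lmyc3 pairs summed, members at 0.5 CPM) gave 4 or 5 higher and 2 or 3 lower. edgeR without the block called 0 under every alternative run. Of the 170 members that differed between cultures, 105 had culture means over 2-fold apart and 51 over 4-fold; the other tests, scalings and filters gave 167 to 176, and leaving out a culture 131 to 152. Lmyc3 new against Lmyc3 old gave 134 to 139. Alternatives were run gene by gene for the 6 members that passed and for 10 that did not but had the same sign in all 4 pairs, and none of these changed direction. For the 6, 52 values stayed past the threshold and 38 did not, and for the 10, 147 stayed short of it and 1 passed (Slc9a9 at an adjusted p under 0.1). The members called were not the same throughout: with the Lmyc3 pairs summed, Slc38a3 and Slc35g2 were lost. The cause of these shifts was not tested. Some libraries of Slc9a2 and Slc38a3 held as few as 0 to 6 counts, and those of Slc35g2 held 421 to 1227 counts. The part of depth in these shifts was not tested.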
